A study of Mus musculus with 10 samples.

Results

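Genes that copy DNA, or prepare the cell to copy it, were followed in mouse liver tumours and normal mouse liver. The list has 45 genes, chosen by symbol for their role in DNA replication and S phase, and all 45 were found among the 56748 genes of the deposited table. RNA was sequenced from 10 liver samples: 3 Akt/Nras/Foxo1AAA tumours, 3 Akt/Nras tumours and 4 normal livers. Akt/Nras tumours are hepatocellular carcinomas raised with Akt and Nras, and Akt/Nras/Foxo1AAA tumours were raised with Foxo1AAA beside these, a form of the transcription factor FOXO1 that AKT cannot switch off. The labels state that DNA was brought into hepatocytes by hydrodynamic tail vein injection, a rapid injection of plasmid into the tail vein, and that normal livers came from wild-type FVB mice; all 10 samples are labelled as wild type in genotype. They do not give the age of the mice, the promoters or species of the injected sequences, or whether the replicates of a group came from separate mice, so the spread behind each p-value may be technical. Tumour samples were whole tissue, not sorted cells.

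Replication starts when the origin recognition complex, with CDC6 and CDT1, loads the MCM helicase on DNA in G1. In S phase the helicase is switched on by CDC45, the GINS complex and MCM10, and polymerase alpha with its primase, polymerases delta and epsilon, the sliding clamp PCNA and its loader RFC build the new strands. Most of these genes are transcribed late in G1 under E2F factors, and adult hepatocytes, which divide rarely, express little of many of them.

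Whole reads behind the values numbered 15391726 to 20747209 per Akt/Nras/Foxo1AAA tumour, 16158825 to 21262035 per Akt/Nras tumour and 13585055 to 17529948 per normal liver. Reads of the 45 genes made up 0.0440% to 0.0548% of them in Akt/Nras/Foxo1AAA and 0.0620% to 0.106% in Akt/Nras tumours, against 0.0363% to 0.0499% in normal livers. Mitochondrial reads made up 2.44% to 3.48% and 2.18% to 2.55% in these tumour groups, against 5.59% to 7.93% in normal livers. Levels are FPKM, fragments scaled by gene length and by a divisor for each library, so that genes of different length can be compared. Recovered from the values, this divisor did not follow the whole reads. Its ratio to them was 0.875 to 0.928 in Akt/Nras/Foxo1AAA tumours and 1.002 to 1.061 in Akt/Nras tumours. In normal livers that ratio was 0.629 to 0.668. Why the divisor differed between groups was not tested. Hepatocyte markers marked every library, with Alb at 20324 to 26669 FPKM in Akt/Nras/Foxo1AAA tumours and 18384 to 20890 FPKM in Akt/Nras tumours, against 35055 to 40701 FPKM in normal livers. All 5 hepatocyte markers in the table were called lower in both tumour groups. The summed 5 markers of cholangiocytes and progenitors stood at 2658 to 5383 FPKM in Akt/Nras/Foxo1AAA tumours, 4099 to 5796 FPKM in Akt/Nras tumours and 16.0 to 24.1 FPKM in normal livers, mostly through Spp1. Summed markers were also higher in both tumour groups for stellate cells (62.9 to 84.3 and 91.3 to 122 FPKM, against 28.1 to 33.8 FPKM in normal livers), endothelial cells (22.9 to 27.7 and 24.0 to 32.0 FPKM, against 13.1 to 14.8 FPKM) and macrophages (165 to 196 and 123 to 219 FPKM, against 84.5 to 121 FPKM). Within these lists Lrat and Dcn, 2 of the 5 stellate cell markers, were called lower in both tumour groups, the other 3 higher. Of the 5 endothelial markers 3 were called higher in both groups, and Stab2 and Kdr were called in neither. Kdr was at 2.96 to 4.45 FPKM in Akt/Nras/Foxo1AAA tumours and 3.13 to 3.53 FPKM in Akt/Nras tumours, against 3.70 to 4.32 FPKM in normal livers. Clec4f, a marker of Kupffer cells, was called lower in Akt/Nras tumours, and the other 4 macrophage markers were called higher in both groups. Summed markers came to 7.06 to 24.8 and 11.4 to 24.7 FPKM, against 0.748 to 3.93 FPKM in normal livers, for neutrophils, with Ly6g at 0 in 7 libraries. Those of T and NK cells and of B cells were at most 1.88 and 1.68 FPKM in any library. Klf1, a factor of red cell precursors, was at 0 to 0.25 FPKM in Akt/Nras/Foxo1AAA tumours and 0.21 to 0.48 FPKM in Akt/Nras tumours, against 4.43 to 6.73 FPKM in normal livers. The part that a different mix of cells had in the values below was not tested.

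A pair of libraries stood apart before any comparison. Akt/Nras replicate 1 was the lowest of its group in 42 of the 45 genes and in 25 of 25 mitosis genes. Normal liver replicate 1 was the highest of its group in 26 of the 45 and in 24 of the 25 mitosis genes. Counts below are also given without this pair, which was picked after these values were seen. Leaving out Akt/Nras replicate 1 raises the mean of its group for most of these genes by construction. This widens their gap to Akt/Nras/Foxo1AAA tumours, and leaving out normal liver replicate 1 lowers the mean of normal liver for many. Counts without the pair are thus no separate support for these differences.

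Against normal liver, more replication genes were higher than lower in both kinds of tumour. Among them were the MCM helicase, Lig1, Uhrf1, E2f1 and Rrm2, while Mcm10, Gins4 and Tk1 were lower. A gene was tested where it reached 1 FPKM in at least 3 of the 10 libraries, and was called where limma, fitted to log2(FPKM + 1) of all 12439 such genes, gave an adjusted p under 0.05. In Akt/Nras tumours 25 of the 37 replication genes tested were called higher and 3 lower than in normal liver, against 31.1% of all tested genes called higher and 37.9% called lower. In Akt/Nras/Foxo1AAA tumours 16 of 37 were called higher and 4 lower, against 26.8% and 36.5% of all tested genes. The median log2 change of the 37 was 0.69 in Akt/Nras tumours and 0.31 in Akt/Nras/Foxo1AAA tumours, and that of all tested genes was -0.07 and -0.09. Both comparisons use the same normal livers. The 16 genes called higher in Akt/Nras/Foxo1AAA tumours were all among the 25 called in Akt/Nras tumours.

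Some genes could pass the filter on low values through one group, so these counts hold for the genes tested and not for all 45. Brca1, Ccne2, Cdc45 and Prim2 would have failed it without 1 of the groups. Cdc45 and Prim2 passed only through the Akt/Nras tumours, where they were highest, and Brca1 needed both tumour groups to pass. The calls of Brca1, Cdc45 and Prim2 in Akt/Nras tumours held with no filter, and that of Brca1 in Akt/Nras/Foxo1AAA tumours was lost. With no filter, all 45 genes entered the fit, and 30 were called higher and 3 lower in Akt/Nras tumours (18.8% and 19.3% of 27446 genes), and 15 higher and 3 lower in Akt/Nras/Foxo1AAA tumours (14.7% and 18.1%). Over all 45 genes, 42 had a higher mean in Akt/Nras tumours and 36 had a higher mean in Akt/Nras/Foxo1AAA tumours than in normal liver. The libraries did not overlap for 27 higher and 3 lower genes in Akt/Nras tumours (30.9% and 37.4% of tested genes) and for 22 higher and 4 lower genes in Akt/Nras/Foxo1AAA tumours (27.9% and 37.5%). These counts are out of all 45, and 6 of the 27 and 5 of the 22 failed the filter. The shares cover only genes that passed it. Without the pair of libraries that stood apart, limma called 28 higher and 3 lower in Akt/Nras tumours, when 29% and 35.7% of all tested genes were. In Akt/Nras/Foxo1AAA tumours it then called 18 higher and 3 lower, against 27.1% and 36.2%. As in any bulk tissue, more cells in S phase and more of these mRNAs per cell cannot be told apart.

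The scale of the deposited values, set by the divisor of each library, bears on direction. FPKM summed to 413812 to 444893 in Akt/Nras/Foxo1AAA tumours, 349619 to 381653 in Akt/Nras tumours, against 692010 to 743203 in normal livers. With every library brought to the same total the median change of all tested genes moved to 0.47 in Akt/Nras/Foxo1AAA tumours and 0.70 in Akt/Nras tumours. On that scale 35 replication genes were called higher and 1 lower in Akt/Nras tumours, and 30 higher and 2 lower in Akt/Nras/Foxo1AAA tumours. Among those called higher in Akt/Nras/Foxo1AAA tumours were Cdt1, Orc6, Pcna, Rpa2 and Rrm1, which were not called there as deposited. Over all tested genes the calls then split into 8609 higher and 1713 lower in Akt/Nras tumours (3871 and 4716 as deposited) and into 7584 higher and 1681 lower in Akt/Nras/Foxo1AAA tumours (3330 and 4544 as deposited).

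**Figure D1:**
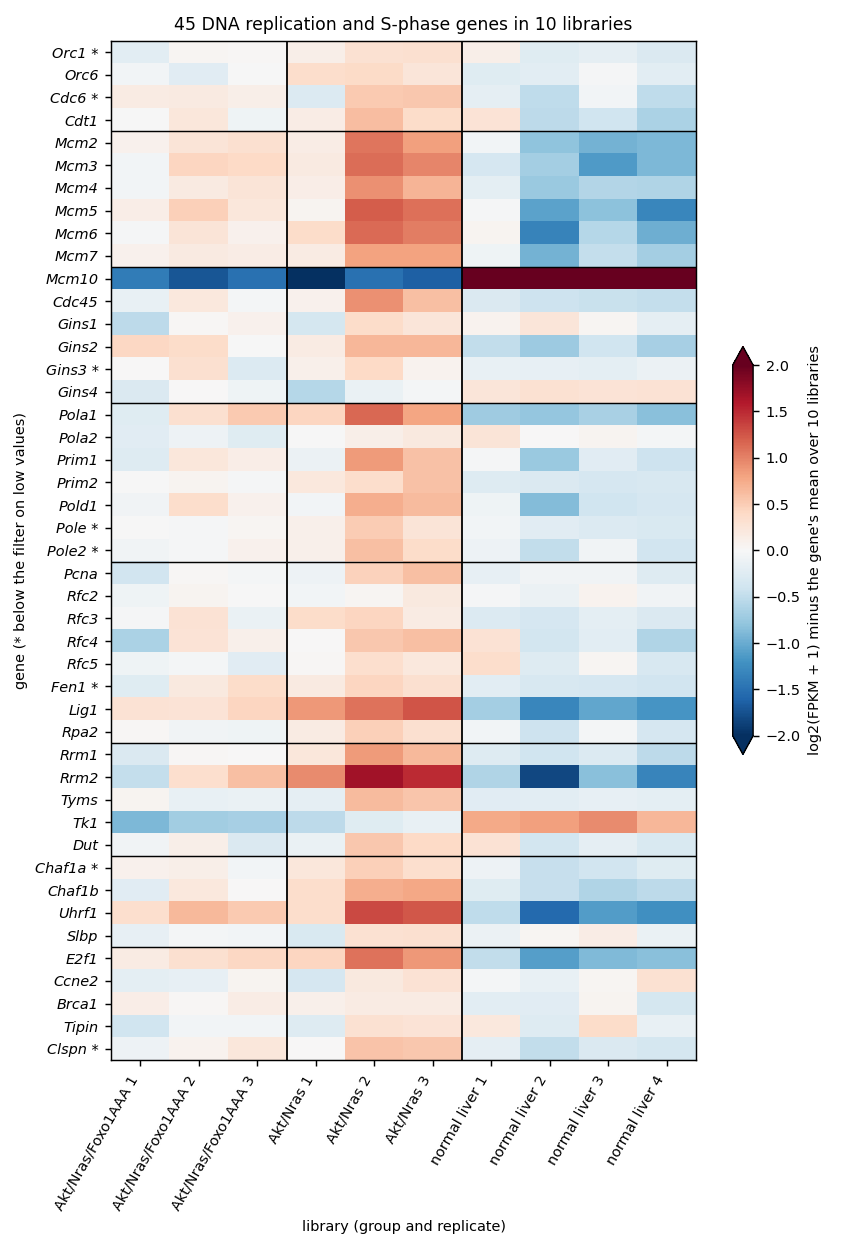
Each row is 1 of the 45 genes, grouped by role with black lines, and each column is 1 library; colour is log2(FPKM + 1) minus the gene's mean over the 10 libraries, on a scale that ends at -2 and 2. Akt/Nras replicates 2 and 3 are the reddest columns, Akt/Nras replicate 1 is paler than both, and Mcm10, Gins4 and Tk1 run the other way, highest in normal liver.

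The stretches of DNA before the start of transcription are shown for 6 genes. Mcm5, Mcm6, Pola1 and Uhrf1, called higher in both tumour groups, were picked because their windows hold an E2F word, and Mcm10 and Tk1, called lower in both, hold none. RefSeq promoter windows (build GRCm38.p6, 250 bases before to 50 after the start) were matched by symbol for 36 of the 45 genes. They were searched on both strands for the E2F words TTTCCCGC, TTTCGCGC, TTTGCCGC and TTTGGCGC, and 15 of 36 genes (41.7%) held at least 1, against 2.60% of 27025 genes with a window and 2.26% of all 32851 windows. CCAAT, the word bound by NF-Y, was found for 22 of 36 (61.1%) and 41.1% of all genes. In 1 place a match of each kind overlapped. Of the genes called higher in Akt/Nras tumours, Cdt1, Lig1, Mcm3, Mcm5, Mcm6, Mcm7, Pola1, Pold1, Rfc3 and Uhrf1 held an E2F word and 12 others with a window, among them E2f1, Rrm2 and Mcm2, did not. The 250 bases before the start are given 5′ to 3′ on the strand of the gene, with E2F words in capitals.
Mcm5: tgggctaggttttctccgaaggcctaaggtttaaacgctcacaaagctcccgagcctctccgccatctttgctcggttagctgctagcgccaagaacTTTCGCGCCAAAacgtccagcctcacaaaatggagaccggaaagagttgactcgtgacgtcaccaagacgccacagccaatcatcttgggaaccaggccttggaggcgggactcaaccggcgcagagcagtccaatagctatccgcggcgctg
Mcm6: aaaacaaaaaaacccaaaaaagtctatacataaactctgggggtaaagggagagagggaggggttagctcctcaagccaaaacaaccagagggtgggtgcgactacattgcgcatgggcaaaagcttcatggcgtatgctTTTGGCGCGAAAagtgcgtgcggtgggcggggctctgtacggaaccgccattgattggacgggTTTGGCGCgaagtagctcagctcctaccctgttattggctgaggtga
Pola1: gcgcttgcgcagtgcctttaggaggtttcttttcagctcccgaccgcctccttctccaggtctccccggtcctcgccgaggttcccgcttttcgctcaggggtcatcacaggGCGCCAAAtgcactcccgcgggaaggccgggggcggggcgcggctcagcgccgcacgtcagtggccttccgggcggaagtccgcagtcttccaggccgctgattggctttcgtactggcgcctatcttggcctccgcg
Uhrf1: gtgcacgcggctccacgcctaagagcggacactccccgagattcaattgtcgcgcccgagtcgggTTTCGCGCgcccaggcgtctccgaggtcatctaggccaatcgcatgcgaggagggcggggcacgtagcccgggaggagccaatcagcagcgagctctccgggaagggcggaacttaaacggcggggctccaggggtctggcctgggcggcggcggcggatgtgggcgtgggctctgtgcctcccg
Mcm10: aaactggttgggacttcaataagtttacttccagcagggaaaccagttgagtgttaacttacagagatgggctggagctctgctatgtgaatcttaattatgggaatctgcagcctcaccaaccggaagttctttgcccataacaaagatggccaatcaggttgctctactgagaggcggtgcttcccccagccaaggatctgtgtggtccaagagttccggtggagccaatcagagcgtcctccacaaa
Tk1: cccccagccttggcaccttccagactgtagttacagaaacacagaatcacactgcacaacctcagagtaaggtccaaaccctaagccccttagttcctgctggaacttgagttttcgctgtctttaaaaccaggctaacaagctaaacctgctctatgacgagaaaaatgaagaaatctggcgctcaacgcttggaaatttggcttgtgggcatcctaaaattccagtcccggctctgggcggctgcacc
These lie at chr8:75109259-75109508 (plus strand) for Mcm5, chr1:128359706-128359955 (minus) for Mcm6, chrX:93632156-93632405 (minus) for Pola1, chr17:56304063-56304312 (plus) for 1 of 2 starts of Uhrf1, chr2:5012792-5013041 (minus) for Mcm10 and chr11:117826015-117826264 (minus) for Tk1. The capitals of Mcm5 are 2 overlapping words that start 153 and 149 bases before the start. Mcm6 has 2 overlapping words as well, and another nearer to its start, whereas Pola1 and Uhrf1 have 1 each. A match only describes the letters, and windows with no match say nothing about E2F at these genes.

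Of the 4 origin licensing genes, Cdt1 and Orc6 passed the filter, and both rose in Akt/Nras tumours. Cdt1, which brings the MCM helicase to origins, was at 3.54, 4.29 and 3.3 FPKM in Akt/Nras/Foxo1AAA tumours and 4.05, 5.98 and 4.86 in Akt/Nras tumours, against 4.51, 2.17, 2.46 and 1.92 in normal livers. Normal liver replicate 1 lay above all 3 Akt/Nras/Foxo1AAA tumours and 1 Akt/Nras tumour, and the other 3 normal livers lay below all tumours. Cdt1 was 1.79-fold higher in Akt/Nras tumours by the ratio of mean FPKM (log2 difference 0.70, SE 0.20, adjusted p = 0.0109 by limma). Log2 differences are those of mean log2(FPKM + 1), and so understate the ratio for low genes. In Akt/Nras/Foxo1AAA tumours its change did not pass (log2 difference 0.37, SE 0.20, adjusted p = 0.141 by limma). Orc6, a subunit of the origin recognition complex, stood at 2.21, 1.86 and 2.32 FPKM in Akt/Nras/Foxo1AAA tumours and 3.25, 3.35 and 2.95 in Akt/Nras tumours, against 1.83, 1.9, 2.29 and 1.88 in normal livers. All Akt/Nras tumours were above all other libraries (log2 difference 0.49, SE 0.09, adjusted p = 0.000594 by limma against normal liver), and the Akt/Nras/Foxo1AAA tumours overlapped normal liver (log2 difference 0.07, SE 0.09, adjusted p = 0.497 by limma). On the opposite strand Orc6 overlaps Vps35, at a mean of 10.7 FPKM in Akt/Nras/Foxo1AAA tumours and 11.1 FPKM in Akt/Nras tumours, against 9.79 FPKM in normal livers, and whether counting used strand is not known here.

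Orc1 and Cdc6, which recognise the origin and load the helicase there, were below the filter. Orc1 rested on few reads, 6, 19 and 14 in Akt/Nras/Foxo1AAA tumours and 21, 35 and 43 in Akt/Nras tumours, against 15, 2, 4 and 1 in normal livers. These gave 0.0950, 0.306 and 0.282 FPKM in Akt/Nras/Foxo1AAA tumours and 0.367, 0.566 and 0.580 in Akt/Nras tumours, against 0.368, 0.0641, 0.120 and 0.0326 in normal livers. Akt/Nras tumours and normal livers touched only at normal liver replicate 1. Cdc6 was at 0.643, 0.653 and 0.589 FPKM in Akt/Nras/Foxo1AAA tumours and 0.209, 1.11 and 1.11 in Akt/Nras tumours, against 0.294, 0.0213, 0.400 and 0.0217 in normal livers, with Akt/Nras replicate 1 inside the range of normal livers and all Akt/Nras/Foxo1AAA tumours above it.

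The MCM helicase moved as a whole. All 6 subunits were called higher in Akt/Nras/Foxo1AAA tumours, between 1.69-fold (Mcm7) and 2.55-fold (Mcm5). All 6 were also called higher in Akt/Nras tumours, between 2.43-fold (Mcm7) and 4.11-fold (Mcm5). Mcm7, the subunit with the highest level in each of the 10 libraries, was at 7.88, 8.55 and 8.35 FPKM in Akt/Nras/Foxo1AAA tumours and 8.42, 13.6 and 13.6 in Akt/Nras tumours, against 6.89, 3.35, 5.05 and 4.26 in normal livers. All tumours were above all normal livers (log2 difference 0.69, SE 0.20, adjusted p = 0.0128 by limma in Akt/Nras/Foxo1AAA tumours; log2 difference 1.14, SE 0.20, adjusted p = 0.000516 by limma in Akt/Nras tumours). Mcm7 overlaps Cops6 on the opposite strand, whose means were 43.8 FPKM in Akt/Nras/Foxo1AAA tumours and 42.8 FPKM in Akt/Nras tumours, against 54.2 FPKM in normal livers.

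Mcm5 had the largest change of the helicase, at 4.11, 5.49 and 4.47 FPKM in Akt/Nras/Foxo1AAA tumours and 3.87, 9.76 and 9.04 in Akt/Nras tumours, against 3.59, 1.23, 1.65 and 0.881 in normal livers. Tumours and normal livers did not overlap, but Akt/Nras replicate 1 was only just above normal liver replicate 1. The log2 change was 1.59 in Akt/Nras tumours (SE 0.33, adjusted p = 0.00127 by limma) and 1.08 in Akt/Nras/Foxo1AAA tumours (SE 0.33, adjusted p = 0.0139 by limma). The second call was lost without Akt/Nras/Foxo1AAA replicate 2. Mcm3 was at 4.38, 6.55 and 6.4 FPKM in Akt/Nras/Foxo1AAA tumours and 5.36, 11.1 and 10.1 in Akt/Nras tumours, against 3.46, 2.5, 1.56 and 2.0 in normal livers, again with no overlap with normal liver in either group (log2 difference 1.52, SE 0.25, adjusted p = 0.000258 by limma in Akt/Nras tumours; log2 difference 1.02, SE 0.25, adjusted p = 0.00424 by limma in Akt/Nras/Foxo1AAA tumours). Mcm4, whose log2 change was the smallest of the 6, was at 3.25, 3.98 and 4.29 FPKM in Akt/Nras/Foxo1AAA tumours and 3.85, 7.34 and 6.08 in Akt/Nras tumours, against 2.83, 1.65, 1.92 and 1.9 in normal livers. Its tumours also stood above every normal liver (log2 difference 1.11, SE 0.19, adjusted p = 0.000305 by limma in Akt/Nras tumours; log2 difference 0.66, SE 0.19, adjusted p = 0.00941 by limma in Akt/Nras/Foxo1AAA tumours).

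Mcm2, the lowest subunit in 8 of 10 libraries, rose 3.73-fold in Akt/Nras and 2.41-fold in Akt/Nras/Foxo1AAA tumours, and Mcm6 rose 3.67-fold and 1.95-fold. For Mcm6 the Akt/Nras/Foxo1AAA tumours overlapped normal liver replicate 1 (log2 difference 0.81, SE 0.30, adjusted p = 0.0334 by limma), and that call was lost without any 1 of the 3 Akt/Nras/Foxo1AAA tumours or without normal liver replicate 2 or 4. Summed over the 6 subunits, FPKM came to 26.1, 32.5 and 31.0 in Akt/Nras/Foxo1AAA tumours and 29.6, 57.8 and 52.8 in Akt/Nras tumours, against 23.2, 10.7, 13.3 and 11.4 in normal livers. The sum in Akt/Nras replicate 1 thus fell within the range of Akt/Nras/Foxo1AAA tumours. The ratio of this sum to that of the 4 clamp loader genes Rfc2 to Rfc5, which does not depend on the scale of a library, was 1.93 to 2.17 in Akt/Nras/Foxo1AAA tumours and 1.85 to 2.97 in Akt/Nras tumours, against 0.890 to 1.45 in normal livers, with no overlap of either tumour group with normal liver. This and the ratios below are given as descriptions, with no test.

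**Figure D2:**
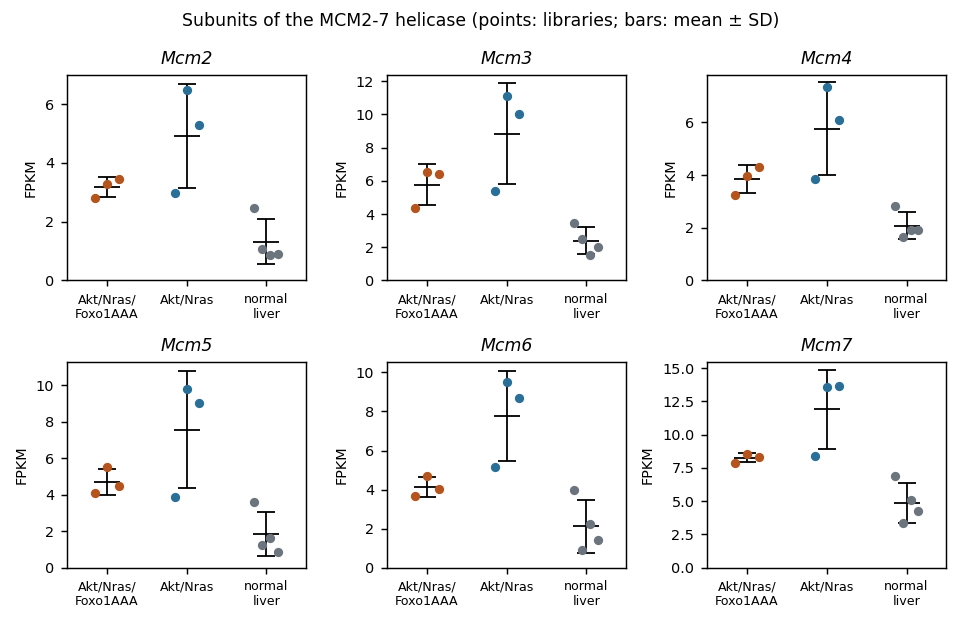
FPKM of the 6 subunits of the MCM helicase on linear axes that start at 0; points are libraries and bars are the mean ± SD of 3 Akt/Nras/Foxo1AAA tumours, 3 Akt/Nras tumours and 4 normal livers. In each panel 2 Akt/Nras tumours lie far above the third, which sits near the Akt/Nras/Foxo1AAA tumours, and 1 normal liver lies above the other 3.

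The helicase activators did not move together. Mcm10, which helps to open the loaded helicase, was the gene with the largest change of the whole list, and it was lower in tumours. Mcm10 (ENSMUSG00000026669) was at 1.32, 0.873 and 1.16 FPKM in Akt/Nras/Foxo1AAA tumours and 0.411, 1.18 and 0.964 in Akt/Nras tumours, against 29.5, 25.7, 42.1 and 35.1 in normal livers. Every normal liver exceeded every tumour by at least 19-fold, and no overlapping gene is listed. Behind these values stood 185, 120 and 128 reads in Akt/Nras/Foxo1AAA tumours and 52, 161 and 158 in Akt/Nras tumours, against 2658, 1771, 3099 and 2377 in normal livers. Its mean was 1.12 ± 0.229 FPKM (SD of 3 libraries) and 0.851 ± 0.395 FPKM (SD of 3 libraries) in Akt/Nras/Foxo1AAA and Akt/Nras tumours, against 33.1 ± 7.14 FPKM (SD of 4 libraries) in normal livers. It was thus 29.5-fold lower in Akt/Nras/Foxo1AAA tumours (log2 difference -3.99, SE 0.18, adjusted p = 7.15e-08 by limma) and 38.9-fold lower in Akt/Nras tumours (log2 difference -4.20, SE 0.18, adjusted p = 2.70e-08 by limma). The call held under each alternative run, scalings included. In normal livers Mcm10 was the highest of the 45 genes by mean. Its nearest protein-coding gene on the same strand, Optn, had means of 16.0 FPKM in Akt/Nras/Foxo1AAA tumours and 13.0 FPKM in Akt/Nras tumours, against 28.6 FPKM in normal livers. Phyh, a peroxisomal enzyme gene 51 kb away on the opposite strand, had means of 267 FPKM in Akt/Nras/Foxo1AAA tumours and 116 FPKM in Akt/Nras tumours, against 1464 FPKM in normal livers.

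Gins4, a subunit of the GINS complex that binds the helicase with CDC45, was at 11.1, 13.9 and 13.0 FPKM in Akt/Nras/Foxo1AAA tumours and 8.92, 12.5 and 13.4 in Akt/Nras tumours, against 16.6, 17.4, 16.8 and 17.1 in normal livers. All tumours were below all normal livers (log2 difference -0.40, SE 0.12, adjusted p = 0.0168 by limma in Akt/Nras/Foxo1AAA tumours; log2 difference -0.53, SE 0.12, adjusted p = 0.00306 by limma in Akt/Nras tumours). This direction rests on the deposited scale, since with equal totals Gins4 was higher in both (log2 change 0.28 in Akt/Nras/Foxo1AAA and 0.38 in Akt/Nras tumours). The call in Akt/Nras/Foxo1AAA tumours was also lost without their replicate 1. The other GINS subunits differed from it. Gins2 was at 1.68, 1.61 and 1.01 FPKM in Akt/Nras/Foxo1AAA tumours and 1.25, 2.18 and 2.19 in Akt/Nras tumours, against 0.438, 0.218, 0.536 and 0.277 in normal livers, with all tumours above all normal livers (log2 difference 0.83, SE 0.16, adjusted p = 0.00109 by limma in Akt/Nras/Foxo1AAA tumours; log2 difference 1.06, SE 0.16, adjusted p = 0.000162 by limma in Akt/Nras tumours). Gse1, which overlaps Gins2 on the opposite strand, had means of 2.01 FPKM in Akt/Nras/Foxo1AAA tumours and 2.31 FPKM in Akt/Nras tumours, against 1.14 FPKM in normal livers. The ratio of Gins4 to Gins2 was 6.63 to 12.9 in Akt/Nras/Foxo1AAA tumours and 5.73 to 7.16 in Akt/Nras tumours, against 31.4 to 79.7 in normal livers. Gins1 did not pass in either tumour group (log2 change -0.18 and 0.05), and Gins3 was below the filter at 0.233 to 0.867 FPKM in Akt/Nras/Foxo1AAA tumours and 0.572 to 0.976 FPKM in Akt/Nras tumours, against 0.309 to 0.377 FPKM in normal livers. Cdc45 rose 4.09-fold in Akt/Nras tumours (log2 difference 0.94, SE 0.18, adjusted p = 0.000766 by limma) and did not pass in Akt/Nras/Foxo1AAA tumours (limma adjusted p = 0.0659), although all 3 libraries there lay above normal livers (0.739 to 1.23 FPKM in Akt/Nras/Foxo1AAA tumours and 1.04 to 2.65 FPKM in Akt/Nras tumours, against 0.388 to 0.585 FPKM in normal livers). Ufd1, which overlaps Cdc45 on the opposite strand, had means of 9.36 FPKM and 9.77 FPKM in these tumours, against 11.0 FPKM in normal livers.

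**Figure D3:**
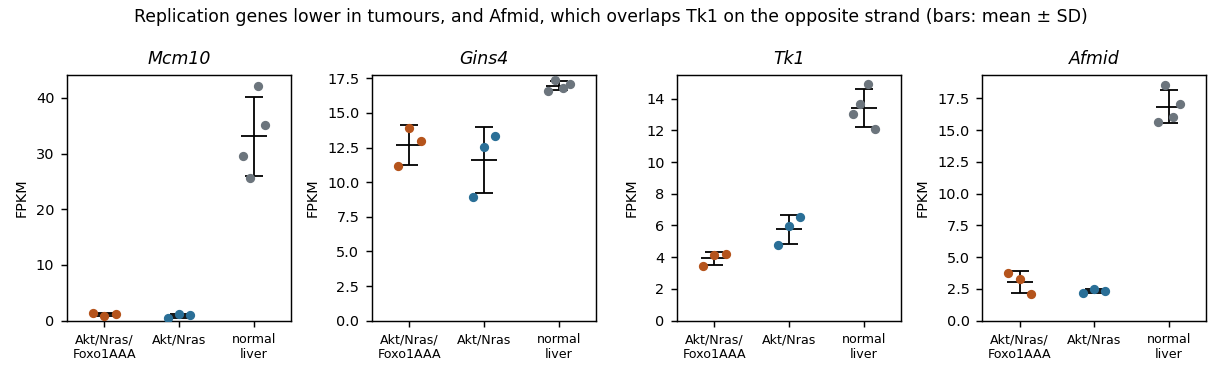
FPKM of Mcm10, Gins4 and Tk1, called lower in both tumour groups, and of Afmid, which overlaps Tk1 on the opposite strand; points are libraries, bars are the mean ± SD and axes are linear from 0. In all 4 panels the 4 normal livers lie above all 6 tumours, by the widest margin for Mcm10.

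Among the polymerase and primase genes the catalytic and accessory subunits of polymerase alpha parted. Pola1, the catalytic subunit, was at 1.26, 2.33 and 2.86 FPKM in Akt/Nras/Foxo1AAA tumours and 2.61, 4.93 and 3.61 in Akt/Nras tumours, against 0.630, 0.557, 0.711 and 0.489 in normal livers. It was higher in every tumour than in every normal liver, 3.6-fold in Akt/Nras/Foxo1AAA (log2 difference 0.95, SE 0.20, adjusted p = 0.00168 by limma) and 6.23-fold in Akt/Nras tumours (log2 difference 1.54, SE 0.20, adjusted p = 4.61e-05 by limma). Pola2, the accessory subunit of the same complex, was at 0.963, 1.13 and 0.937 FPKM in Akt/Nras/Foxo1AAA tumours and 1.28, 1.48 and 1.64 in Akt/Nras tumours, against 1.74, 1.3, 1.37 and 1.23 in normal livers. Its level in Akt/Nras tumours overlapped that of normal livers (log2 difference 0.03, SE 0.10, adjusted p = 0.787 by limma), and in Akt/Nras/Foxo1AAA tumours it was just called lower (log2 difference -0.26, SE 0.10, adjusted p = 0.0467 by limma), a call lost under most alternatives and turned to 0.13 with equal totals. The ratio of Pola1 to Pola2 was 1.31, 2.06 and 3.05 in Akt/Nras/Foxo1AAA tumours and 2.05, 3.34 and 2.2 in Akt/Nras tumours, against 0.362, 0.427, 0.518 and 0.397 in normal livers. So Pola1 exceeded Pola2 in all 6 tumours and was below it in all 4 normal livers.

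The primase genes lay between these. Prim2, the large primase subunit, rose 2.64-fold in Akt/Nras and 1.64-fold in Akt/Nras/Foxo1AAA tumours with no overlap with normal liver (limma adjusted p = 0.000155 and 0.0226), the second call lost without Akt/Nras/Foxo1AAA replicate 2. Prim1, the catalytic primase subunit, passed in Akt/Nras tumours (limma adjusted p = 0.0123, lost without their replicate 2) and not in Akt/Nras/Foxo1AAA tumours (limma adjusted p = 0.177). Pold1, the catalytic subunit of polymerase delta, was at 1.9, 2.92 and 2.25 FPKM in Akt/Nras/Foxo1AAA tumours and 1.94, 4.09 and 3.78 in Akt/Nras tumours, against 1.9, 0.688, 1.33 and 1.42 in normal livers. Normal liver replicate 1 reached the lowest tumours, so the groups barely separated (log2 difference 0.85, SE 0.22, adjusted p = 0.00566 by limma in Akt/Nras tumours; log2 difference 0.54, SE 0.22, adjusted p = 0.0549 by limma in Akt/Nras/Foxo1AAA tumours). Pole and Pole2, the catalytic subunit and a further subunit of polymerase epsilon, were below the filter, but in both every tumour was above every normal liver. Pole lay at 0.632 to 0.709 FPKM in Akt/Nras/Foxo1AAA tumours and 0.779 to 1.38 FPKM in Akt/Nras tumours, against 0.346 to 0.612 FPKM in normal livers.

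At the sliding clamp and on the lagging strand, Lig1 had the largest log2 change of the genes that passed the filter, in both tumour groups. Lig1 (ENSMUSG00000056394), the ligase that joins Okazaki fragments, was at 5.53, 5.44 and 6.21 FPKM in Akt/Nras/Foxo1AAA tumours and 8.73, 10.3 and 11.7 in Akt/Nras tumours, against 2.34, 1.16, 1.58 and 1.34 in normal livers. The 3 groups did not overlap, with Akt/Nras tumours highest. It was 3.56-fold higher than normal liver in Akt/Nras/Foxo1AAA tumours (log2 difference 1.39, SE 0.15, adjusted p = 1.62e-05 by limma) and 6.39-fold higher in Akt/Nras tumours (log2 difference 2.12, SE 0.15, adjusted p = 4.70e-07 by limma). Pcna, which tethers polymerases to DNA, was at 10.6, 14.3 and 13.7 FPKM in Akt/Nras/Foxo1AAA tumours and 13.1, 19.7 and 22.0 in Akt/Nras tumours, against 12.4, 13.4, 13.4 and 11.6 in normal livers. Its levels in Akt/Nras/Foxo1AAA tumours surrounded those of normal livers (log2 difference 0.01, SE 0.16, adjusted p = 0.957 by limma, 95% interval -0.35 to 0.37), and in Akt/Nras tumours replicates 2 and 3 were above them and replicate 1 within them (log2 difference 0.46, SE 0.16, adjusted p = 0.025 by limma). The call in Akt/Nras tumours was lost without Akt/Nras replicate 2, Akt/Nras replicate 3 or normal liver replicate 4, and with no filter. In Akt/Nras/Foxo1AAA tumours Pcna was called higher with equal totals, without the 50 most abundant genes in the scaling, and by voom with summed reads. The ratio of Lig1 to Pcna was 0.380 to 0.521 in Akt/Nras/Foxo1AAA tumours and 0.524 to 0.667 in Akt/Nras tumours, against 0.0864 to 0.189 in normal livers.

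Of the 4 clamp loader genes, Rfc3 was called higher in both tumour groups and Rfc2, Rfc4 and Rfc5 in neither, but with equal totals these 3 were called higher in both. Rfc2 was at 5.51, 6.12 and 5.85 FPKM in Akt/Nras/Foxo1AAA tumours and 5.63, 6.1 and 6.9 in Akt/Nras tumours, against 5.77, 5.32, 6.2 and 5.55 in normal livers, and its ranges overlapped in all groups (log2 change 0.03, 95% interval -0.16 to 0.21, in Akt/Nras/Foxo1AAA tumours; log2 change 0.10, 95% interval -0.08 to 0.29, in Akt/Nras tumours). Rfc3 rose 1.36-fold and 1.72-fold in Akt/Nras/Foxo1AAA and Akt/Nras tumours (limma adjusted p = 0.0276 and 0.00068), the first lost without Akt/Nras/Foxo1AAA replicate 2 or normal liver replicate 2 or 4. Rfc4 and Rfc5 did not pass in either (limma adjusted p from 0.0555 to 0.711). On the opposite strand Rfc4 overlaps Eif4a2, with means of 19.6 FPKM in Akt/Nras/Foxo1AAA tumours and 19.7 FPKM in Akt/Nras tumours, against 55.1 FPKM in normal livers, and Rfc5 overlaps Wsb2, with means of 19.1 FPKM in Akt/Nras/Foxo1AAA tumours and 25.3 FPKM in Akt/Nras tumours, against 12.5 FPKM in normal livers. Rpa2, a subunit of the protein that coats single-stranded DNA, rose 1.57-fold in Akt/Nras tumours (log2 difference 0.53, SE 0.11, adjusted p = 0.00179 by limma) and did not pass in Akt/Nras/Foxo1AAA tumours (limma adjusted p = 0.217). Fen1, the nuclease that trims Okazaki fragments, was below the filter at 0.159, 0.554 and 0.751 FPKM in Akt/Nras/Foxo1AAA tumours and 0.552, 0.836 and 0.697 in Akt/Nras tumours, against 0.176, 0.0920, 0.0863 and 0.0469 in normal livers. Akt/Nras tumours were all above normal livers, and Akt/Nras/Foxo1AAA replicate 1 was not. Tmem258, which overlaps Fen1 on the opposite strand, had means of 35.7 FPKM in Akt/Nras/Foxo1AAA tumours and 38.3 FPKM in Akt/Nras tumours, against 39.0 FPKM in normal livers.

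Of the 5 genes of nucleotide supply, Rrm2 and Tk1 moved in opposite directions. Rrm2 (ENSMUSG00000020649), the subunit of ribonucleotide reductase that rises in S phase, was at 4.1, 8.02 and 9.85 FPKM in Akt/Nras/Foxo1AAA tumours and 12.7, 21.9 and 19.1 in Akt/Nras tumours, against 3.7, 1.01, 2.98 and 1.84 in normal livers. The 3 groups did not overlap, and Rrm2 had the largest log2 increase of the 37 in Akt/Nras tumours, 7.51-fold (log2 difference 2.52, SE 0.33, adjusted p = 5.09e-05 by limma), against 3.07-fold in Akt/Nras/Foxo1AAA tumours (log2 difference 1.30, SE 0.33, adjusted p = 0.00533 by limma). Rrm1, the partner subunit, was at 1.7, 2.36 and 2.31 FPKM in Akt/Nras/Foxo1AAA tumours and 2.87, 4.95 and 4.18 in Akt/Nras tumours, against 1.74, 1.5, 1.73 and 1.29 in normal livers. Akt/Nras tumours were above all other libraries (log2 difference 0.94, SE 0.15, adjusted p = 0.000208 by limma), and Akt/Nras/Foxo1AAA tumours overlapped normal livers (log2 difference 0.28, SE 0.15, adjusted p = 0.122 by limma). The ratio of Rrm2 to Rrm1 was 2.41 to 4.27 in Akt/Nras/Foxo1AAA tumours and 4.42 to 4.57 in Akt/Nras tumours, against 0.671 to 2.12 in normal livers.

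Tk1, the thymidine kinase of S phase, was at 3.43, 4.11 and 4.22 FPKM in Akt/Nras/Foxo1AAA tumours and 4.76, 6.0 and 6.52 in Akt/Nras tumours, against 13.0, 13.7, 14.9 and 12.1 in normal livers. All tumours were below all normal livers, 3.42-fold in Akt/Nras/Foxo1AAA (log2 difference -1.55, SE 0.11, adjusted p = 1.05e-06 by limma) and 2.33-fold in Akt/Nras tumours (log2 difference -1.10, SE 0.11, adjusted p = 7.27e-06 by limma). With equal totals the change in Akt/Nras tumours was -0.23 and no longer passed (limma adjusted p = 0.0872), and that in Akt/Nras/Foxo1AAA tumours was -0.92. Tk1 overlaps Afmid, a kynurenine pathway enzyme gene of liver, on the opposite strand, so its values are uncertain without knowing whether strand was used. Afmid was at 3.77, 3.3 and 2.12 FPKM in Akt/Nras/Foxo1AAA tumours and 2.2, 2.51 and 2.36 in Akt/Nras tumours, against 15.6, 18.6, 16.1 and 17.1 in normal livers, so it too was below normal liver in every tumour. Between the tumour groups the order of the pair differed, with Tk1 higher and Afmid lower by mean in Akt/Nras tumours. Tyms, thymidylate synthase, rose 1.74-fold in Akt/Nras tumours (log2 difference 0.54, SE 0.17, adjusted p = 0.0165 by limma), a call lost without either of its replicates 2 and 3. Dut, which removes dUTP, did not pass in either tumour group (limma adjusted p = 0.813 and 0.089).

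Among the genes that rebuild chromatin behind the fork, Uhrf1, which recruits the maintenance DNA methyltransferase to new DNA, was at 4.84, 6.28 and 5.62 FPKM in Akt/Nras/Foxo1AAA tumours and 4.88, 10.5 and 9.93 in Akt/Nras tumours, against 2.25, 0.576, 1.13 and 0.986 in normal livers. All tumours were above all normal livers, 4.52-fold in Akt/Nras/Foxo1AAA tumours (log2 difference 1.60, SE 0.27, adjusted p = 0.000399 by limma) and 6.84-fold in Akt/Nras tumours (log2 difference 2.07, SE 0.27, adjusted p = 5.01e-05 by limma). Chaf1b, a subunit of the histone chaperone CAF-1, was at 1.71, 2.68 and 2.21 FPKM in Akt/Nras/Foxo1AAA tumours and 3.04, 4.24 and 4.41 in Akt/Nras tumours, against 1.7, 1.31, 1.09 and 1.21 in normal livers. It too separated from normal liver in both groups, narrowly in Akt/Nras/Foxo1AAA tumours (log2 difference 0.45, SE 0.14, adjusted p = 0.0172 by limma, lost without their replicate 2) and by more in Akt/Nras tumours (log2 difference 1.07, SE 0.14, adjusted p = 6.26e-05 by limma). Chaf1a, its partner, was below the filter, at 0.538 to 0.727 FPKM in Akt/Nras/Foxo1AAA tumours and 0.872 to 1.23 FPKM in Akt/Nras tumours, against 0.164 to 0.492 FPKM in normal livers. Ubxn6, which overlaps Chaf1a on the opposite strand, had means of 2.65 FPKM in Akt/Nras/Foxo1AAA tumours and 2.93 FPKM in Akt/Nras tumours, against 3.36 FPKM in normal livers. Slbp, which binds the stem-loop of histone mRNA, was at 2.2, 2.48 and 2.44 FPKM in Akt/Nras/Foxo1AAA tumours and 1.9, 3.41 and 3.48 in Akt/Nras tumours, against 2.31, 2.7, 2.96 and 2.28 in normal livers. Its groups overlapped (log2 difference -0.07, SE 0.15, adjusted p = 0.684 by limma in Akt/Nras/Foxo1AAA tumours; log2 difference 0.12, SE 0.15, adjusted p = 0.494 by limma in Akt/Nras tumours), and with equal totals it was called higher in both.

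The genes of S-phase control diverged as well. E2f1, an E2F factor that drives genes of S phase, was at 3.06, 3.51 and 3.82 FPKM in Akt/Nras/Foxo1AAA tumours and 3.87, 6.65 and 5.59 in Akt/Nras tumours, against 1.57, 0.671, 0.961 and 1.01 in normal livers. The 3 groups did not overlap, and E2f1 was 3.29-fold higher than normal liver in Akt/Nras/Foxo1AAA tumours (log2 difference 1.13, SE 0.17, adjusted p = 0.000204 by limma) and 5.11-fold higher in Akt/Nras tumours (log2 difference 1.63, SE 0.17, adjusted p = 1.06e-05 by limma). Ccne2, cyclin E2, was at 0.678, 0.704 and 0.981 FPKM in Akt/Nras/Foxo1AAA tumours and 0.522, 1.19 and 1.33 in Akt/Nras tumours, against 0.855, 0.734, 0.957 and 1.36 in normal livers. No group stood apart (log2 difference -0.14, SE 0.17, adjusted p = 0.481 by limma in Akt/Nras/Foxo1AAA tumours and log2 difference 0.01, SE 0.17, adjusted p = 0.954 by limma in Akt/Nras tumours). With equal totals Ccne2 was called higher in Akt/Nras tumours. Ccne2 overlaps Ints8 on the opposite strand, with means of 2.46 FPKM in Akt/Nras/Foxo1AAA tumours and 3.07 FPKM in Akt/Nras tumours, against 2.88 FPKM in normal livers. Its paralog Ccne1, which is not among the 45, was at 9.83, 7.55 and 6.97 FPKM in Akt/Nras/Foxo1AAA tumours and 4.34, 6.8 and 5.41 in Akt/Nras tumours, against 2.6, 1.47, 1.37 and 1.19 in normal livers, so that the ratio of Ccne1 to Ccne2 was 7.1 to 14.5 in Akt/Nras/Foxo1AAA tumours and 4.07 to 8.32 in Akt/Nras tumours, against 0.875 to 3.04 in normal livers. Tipin, a fork protection factor, was at 2.86, 3.89 and 3.9 FPKM in Akt/Nras/Foxo1AAA tumours and 3.22, 5.27 and 5.12 in Akt/Nras tumours, against 4.84, 3.22, 5.54 and 3.58 in normal livers and did not pass in either group (limma adjusted p = 0.354 and 0.773). Brca1, a repair gene that guards stalled forks, rose 1.55-fold in Akt/Nras/Foxo1AAA and 1.64-fold in Akt/Nras tumours (limma adjusted p = 0.0443 and 0.0226), and the first call was lost without any 1 of the 3 Akt/Nras/Foxo1AAA tumours, Akt/Nras replicate 2 or 3, or normal liver replicate 1, 2 or 4. The second was lost without Akt/Nras replicate 2 or 3 or normal liver replicate 4, and both were lost without the pair of libraries that stood apart. Clspn, the checkpoint mediator claspin, was below the filter at 0.314, 0.475 and 0.643 FPKM in Akt/Nras/Foxo1AAA tumours and 0.423, 1.09 and 1.04 in Akt/Nras tumours, against 0.250, 0, 0.160 and 0.111 in normal livers. All tumours were above all normal livers, and the 0 of normal liver replicate 2 allows up to 0.0465 FPKM, the value of 3 reads.

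**Figure D4:**
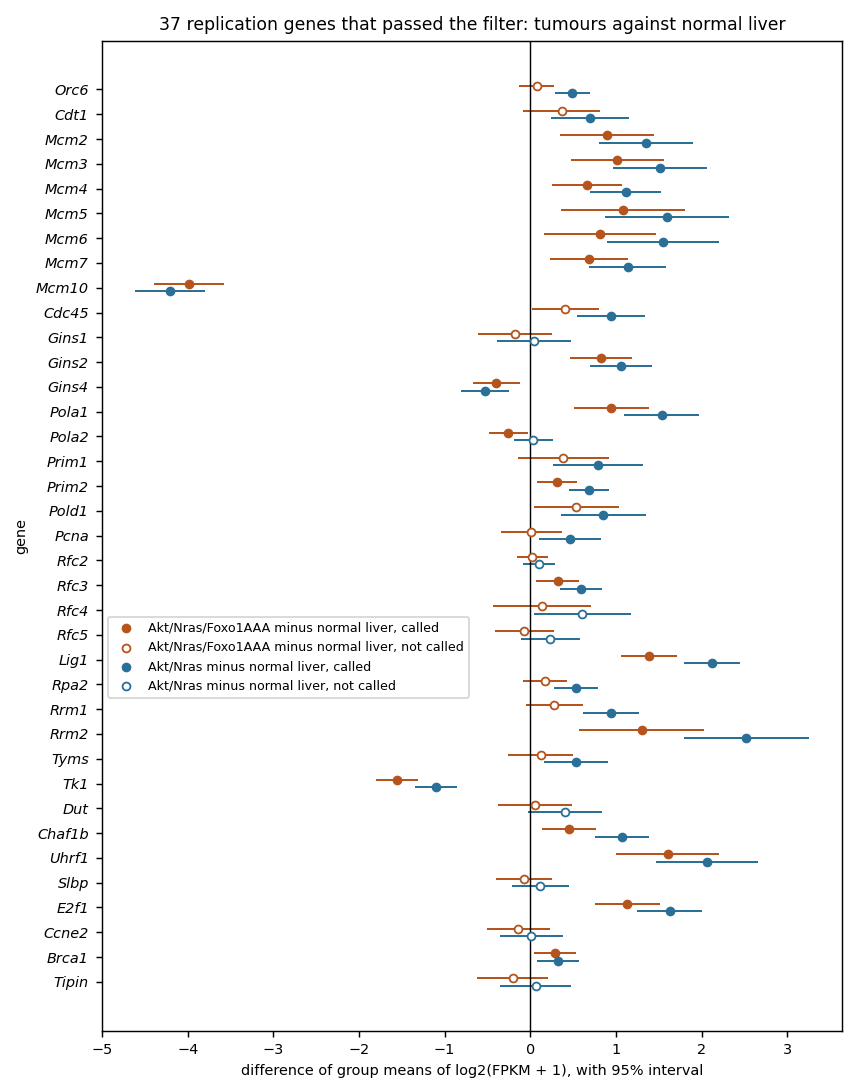
Difference of group means of log2(FPKM + 1) from normal liver with its 95% interval from limma for the 37 genes that passed the filter; orange is Akt/Nras/Foxo1AAA tumours, blue is Akt/Nras tumours, and filled points were called at an adjusted p under 0.05. Blue points lie right of orange ones for nearly every gene, and Mcm10, at -3.99 and -4.20, lies far left of the rest.

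Between the tumour groups the replication genes were lower with Foxo1AAA wherever a difference passed. Over all 45 genes, 43 had a lower mean in Akt/Nras/Foxo1AAA than in Akt/Nras tumours, and 36 had the order of means Akt/Nras over Akt/Nras/Foxo1AAA over normal liver. Limma called 6 of 37 lower, namely Orc6, Lig1, Rrm1, Rrm2, Tk1 and Chaf1b, and 0 higher, against 4.13% of all tested genes called lower and 7.93% called higher. At an unadjusted p under 0.05, 17 of 37 were lower and 0 higher, against 13.1% and 15.9% of all tested genes, and voom on the whole reads also called 0 higher. The median log2 change of the 37 was -0.41, and that of all tested genes -0.01. Akt/Nras/Foxo1AAA tumours did not overlap Akt/Nras tumours for 16 of the 45, all lower (15.5% of tested genes were lower without overlap and 16.4% higher). Of these 16, 4 failed the filter, and the shares cover only genes that passed it.

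Of the 6, Rrm2 differed most, with 4.1, 8.02 and 9.85 FPKM in Akt/Nras/Foxo1AAA tumours, against 12.7, 21.9 and 19.1 FPKM in Akt/Nras tumours (log2 difference -1.22, SE 0.35, adjusted p = 0.0483 by limma). Its subunit partner Rrm1 had a mean of 2.12 ± 0.370 FPKM (SD of 3 libraries) in Akt/Nras/Foxo1AAA tumours and 4.0 ± 1.05 FPKM (SD of 3 libraries) in Akt/Nras tumours (log2 difference -0.66, SE 0.16, adjusted p = 0.0253 by limma). Both subunits of ribonucleotide reductase were therefore called lower with Foxo1AAA in the main fit. The call of Rrm2 was lost with a pseudocount of 0.1, without any 1 of the Akt/Nras tumours, Akt/Nras/Foxo1AAA replicate 1 or 2, or normal liver replicate 3 or 4. That of Rrm1 was lost without Akt/Nras replicate 2 or 3, or Akt/Nras/Foxo1AAA replicate 1 or 2. Both were lost with no filter and with the replicate number as a block. Lig1 averaged 5.73 ± 0.422 FPKM (SD of 3 libraries) and 10.3 ± 1.5 FPKM (SD of 3 libraries) in these groups (log2 difference -0.74, SE 0.16, adjusted p = 0.0167 by limma), and Chaf1b averaged 2.2 ± 0.486 FPKM (SD of 3 libraries) and 3.9 ± 0.748 FPKM (SD of 3 libraries) (log2 difference -0.61, SE 0.15, adjusted p = 0.0288 by limma). For Orc6 the change was -0.42 (SE 0.10, limma adjusted p = 0.0215) and for Tk1 it was -0.45 (SE 0.12, limma adjusted p = 0.0347). The 3 libraries of each group did not overlap for any of the 6.

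These calls depend on few libraries and on the fit. With the 6 tumours alone in the fit limma called 0 of the 37, and 14 were lower at an unadjusted p under 0.05, while over all tested genes 10 were called. Without Akt/Nras/Foxo1AAA replicate 1 it called 0 (9 lower at an unadjusted p under 0.05), without Akt/Nras replicate 2, Akt/Nras replicate 3 or Akt/Nras/Foxo1AAA replicate 2 it called 1 each, and without Akt/Nras replicate 1 it called 10. Leaving out Akt/Nras replicate 1 and normal liver replicate 1 gave 16 lower and 0 higher (2.03% and 3.73% of all tested genes), which share 4 genes with the 6 and lack Orc6 and Rrm2. With equal totals 20 were called lower and 0 higher, when the calls of all tested genes split into 656 higher and 3234 lower (986 and 514 as deposited) and the median change of all tested genes was -0.21. With no filter 1 of the 45 was called lower and 0 higher (1.2% and 2.17% of genes), with 18 lower and 0 higher at an unadjusted p under 0.05.

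Akt/Nras replicate 1 is where the groups meet. Of the 45 genes, 42 were below Akt/Nras replicate 2 in all 3 Akt/Nras/Foxo1AAA tumours and 40 were below Akt/Nras replicate 3 in all 3, but 17 were below Akt/Nras replicate 1 in all 3. All 6 subunits of the MCM helicase failed the test between tumour groups (log2 changes from -0.74 for Mcm6 to -0.45 for Mcm4, limma adjusted p from 0.152 to 0.366). All 6 were called lower without the pair of libraries that stood apart. For each of them Akt/Nras replicate 1 was the lowest of its group, so leaving it out widened the gap by construction. Pcna (log2 difference -0.45, SE 0.17, adjusted p = 0.113 by limma), E2f1 (log2 difference -0.49, SE 0.18, adjusted p = 0.108 by limma) and Prim2 (log2 difference -0.38, SE 0.11, adjusted p = 0.0539 by limma) missed the threshold as well.

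**Figure D5:**
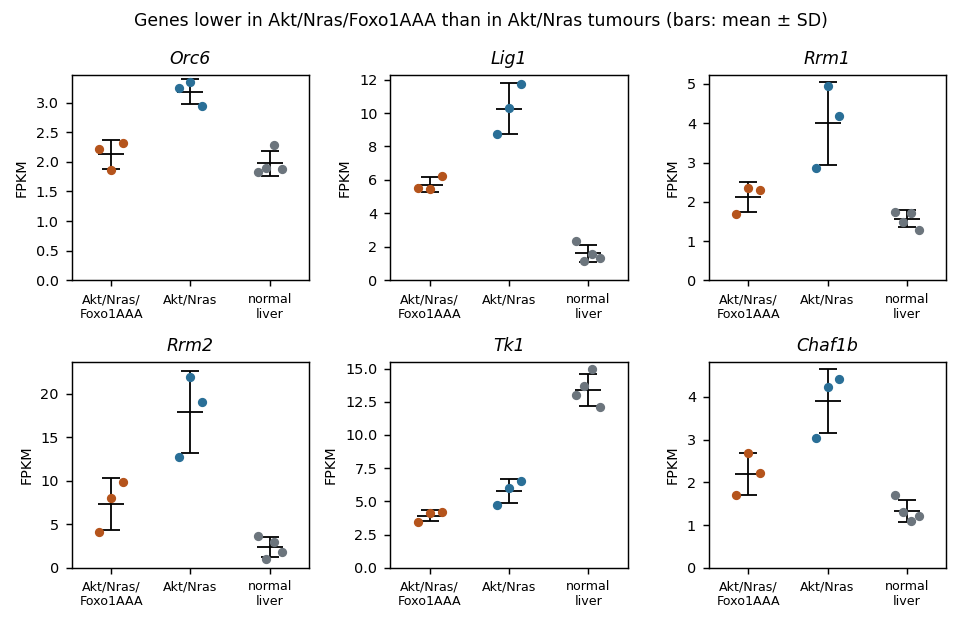
FPKM of the 6 genes called lower in Akt/Nras/Foxo1AAA than in Akt/Nras tumours, with normal livers at the right; points are libraries, bars are the mean ± SD and axes are linear from 0. In each panel the 3 Akt/Nras/Foxo1AAA tumours lie below the 3 Akt/Nras tumours, and in the Tk1 panel both lie below the normal livers.

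Replication genes outside the 45 were called in both directions. Of 62 such genes 42 passed the filter. In Akt/Nras tumours 19 were called higher and 8 lower, against 31.1% and 37.9% of all tested genes. In Akt/Nras/Foxo1AAA tumours 12 were called higher and 12 lower, against 26.8% and 36.5%. The higher count there was near the share of all tested genes. Asf1b, a histone chaperone gene, rose 5.75-fold in Akt/Nras tumours (log2 difference 1.33, SE 0.25, adjusted p = 0.00076 by limma), and Dnmt1, the maintenance DNA methyltransferase, rose 2.17-fold in Akt/Nras/Foxo1AAA tumours (log2 difference 0.87, SE 0.16, adjusted p = 0.00085 by limma). Ccne1 rose 4.89-fold in Akt/Nras/Foxo1AAA (log2 difference 1.79, SE 0.19, adjusted p = 1.52e-05 by limma) and 3.33-fold in Akt/Nras tumours (log2 difference 1.30, SE 0.19, adjusted p = 0.000112 by limma), and its change between the tumour groups did not pass (log2 difference 0.49, SE 0.20, adjusted p = 0.141 by limma). Among those that fell were Pold2, a polymerase delta subunit whose catalytic partner Pold1 rose in Akt/Nras tumours, and Rnaseh2c, an RNase H2 subunit. Pold2 averaged 7.76 ± 1.13 FPKM (SD of 3 libraries) and 8.86 ± 1.19 FPKM (SD of 3 libraries) in Akt/Nras/Foxo1AAA and Akt/Nras tumours, against 15.2 ± 2.41 FPKM (SD of 4 libraries) in normal livers. Between the tumour groups 3 of the 42, Orc2, Rif1 and Dtymk, were lower with Foxo1AAA and 0 higher (2 higher and 13 lower at an unadjusted p under 0.05, and 0 higher by voom). Of all tested genes 4.13% were called lower and 7.93% higher. At an unadjusted p under 0.05 these shares were 13.1% and 15.9%. Of 25 mitosis genes 19 passed the filter. Among these, 18 were called higher in Akt/Nras tumours and 8 in Akt/Nras/Foxo1AAA tumours, against 31.1% and 26.8% of all tested genes. The count of 8 became 14 without normal liver replicate 1, 3 without normal liver replicate 2 or 4, and 4 without normal liver replicate 3. It became 2 without Akt/Nras/Foxo1AAA replicate 2 or with no filter, 4 without Akt/Nras/Foxo1AAA replicate 3, and 17 without the pair of libraries that stood apart. Between the tumour groups limma called 0 of the 19 (13 lower and 0 higher at an unadjusted p under 0.05), and voom called 14 lower with summed reads and 1 lower with the scale of the authors as library size. Ccnb2, a mitotic cyclin, was at 3.67, 7.49 and 2.61 FPKM in Akt/Nras/Foxo1AAA tumours and 6.71, 11.8 and 14.5 in Akt/Nras tumours, against 5.02, 0.582, 1.3 and 1.04 in normal livers. Like the replication genes it was lowest of its group in Akt/Nras replicate 1 and highest of its group in normal liver replicate 1.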

How the data were processed

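RNA from 10 mouse liver samples had been extracted and sequenced after poly(A) capture or removal of ribosomal RNA, and the labels' protocols do not say which. Values are FPKM, per the file headers, in a single table that the authors deposited for 56748 genes. The submitters' processing notes name FastQC 0.11.7 and build GRCm38 with no role; no source used here gives the aligner, the counter or the use of strand. Low values step in units of 1 read, and 100% of values came out as whole reads within a tolerance. It was 0.02 for low counts and widened with the number of reads, so the share says little about genes with many reads. Reads per library were recovered from the step (13585055 to 21262035). Their number limits the precision of low genes, and the floor given for a value of 0 covers counting error only.

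Genes with at least 1 FPKM in at least 3 of 10 libraries (12439) were tested on log2(FPKM + 1) with limma 3.58.1 in R 4.3.3, with all 10 libraries in 1 fit, a trended prior and Benjamini-Hochberg adjustment over all genes tested. Calls are two-sided at an adjusted p under 0.05, folds are ratios of mean FPKM, and the steps were tested on simulated data. Groups follow the labels. The genes of the list, and the other lists, were chosen with earlier results of these data known. The summed red cell markers are not reported here. Genes described in full were set per role by a written rule, and others are given by range or count. Alternatives were another pseudocount, filter, scaling and set of samples, voom on the whole reads, a replicate block, and each library left out; voom with the authors' divisor and the fit without a pair of libraries were added after seeing the data. Promoter sequences are from RefSeq (GRCm38.p6). Coordinates in the deposited table were not used here, since no build is named beside them.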

Additional observations from a re-analysis of the deposited data

Results flagged for a closer look

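A single normal liver stood far from the other 3 for 2 of the 45 genes tested for this, where chance alone marks about 1 group in 20. Orc6 was highest in normal liver replicate 3, at 2.29 FPKM, and Mcm2 was highest in normal liver replicate 1, at 2.46 FPKM.

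For 6 genes the change from normal liver differed between the kinds of tumour, tested as the difference between Akt/Nras/Foxo1AAA and Akt/Nras tumours with limma. The log2 difference was -1.22 for Rrm2, -0.74 for Lig1, -0.66 for Rrm1, -0.61 for Chaf1b, -0.45 for Tk1 and -0.42 for Orc6. All 3 Akt/Nras/Foxo1AAA tumours were below all 3 Akt/Nras tumours for each of the 6, and 0 of them passed with the tumours alone in the fit.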

How the results depend on the processing

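Leaving out 1 library at a time gave 21 to 28 replication genes higher, 3 to 3 lower and 8007 to 8595 of all genes called in Akt/Nras tumours against normal liver. It gave 10 to 18 higher, 2 to 4 lower and 7138 to 8100 in all for Akt/Nras/Foxo1AAA tumours, and 0 to 0 higher, 0 to 10 lower and 550 to 1953 in all between the tumour groups. With no filter, 1 replication gene was lower between the tumour groups (923 genes in all). With a minimum of 5 FPKM (7112 genes tested), 8 were higher in Akt/Nras tumours (5372 in all), 7 were higher in Akt/Nras/Foxo1AAA tumours (5027 in all) and 3 were lower between them. With equal totals, 1 was lower in Akt/Nras tumours, 30 were higher and 2 lower in Akt/Nras/Foxo1AAA tumours, and 20 were lower between them (3890 in all). Scaling without the 50 most abundant genes gave 27 higher and 2 lower in Akt/Nras/Foxo1AAA tumours. Voom with summed reads gave 2 lower there, and 19 lower between the tumour groups (3559 in all). With only the tumours in the fit, 0 were lower (10 in all), and without the pair of libraries that stood apart 16 were (716 in all). With the replicate number as a block, 9 were higher in Akt/Nras/Foxo1AAA tumours than in normal liver and 1 was lower between the tumour groups (468 in all). The numbers are not shown to pair the samples, since correlations of same-numbered deviations ran from -0.17 to 0.11 and only some libraries matched their own number best. A turn of direction was counted only where the change was called in the main fit or in the alternative. Among the genes described in full, directions turned in this way for Gins4 in Akt/Nras tumours (0.38 with equal totals, 0.13 without the 50 genes, 0.11 by voom with summed reads) and in Akt/Nras/Foxo1AAA tumours (0.28, 0.17 and 0.039). In Akt/Nras/Foxo1AAA tumours they also turned for Pola2 (0.13 with equal totals and 0.065 without the 50 genes) and for Slbp (0.43 with equal totals). Rfc5, not described in full, was then also called higher there. Of 720 values with 1 library left out, 672 kept their side of the threshold with no such turn, 40 lost a call, 8 gained one and 0 turned. Of 684 others these were 588, 30, 57 and 9. Turns of changes called in neither fit are within the 672 and 588. Smaller counts under the stricter filter follow in part from fewer genes tested, and the other causes were not tested.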

Other observations

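Replication-dependent histone genes, which supply the protein that new DNA is wrapped on, ran in the other direction between the tumour groups. Of 63 such genes, picked by a symbol rule written after the table was seen, 14 passed the filter, and 7 were called higher and 0 lower in Akt/Nras/Foxo1AAA than in Akt/Nras tumours by limma (10 higher and 1 lower at an unadjusted p under 0.05, and 7 higher and 0 lower by voom). Of all tested genes 7.93% were called higher and 4.13% lower between these groups. With the 6 tumours alone in the fit 0 of the 14 were called. With no filter 5 of 54 were higher and 1 lower (2.17% and 1.2% of all genes). H4c8 averaged 32.9 ± 3.1 FPKM (SD of 3 libraries) in Akt/Nras/Foxo1AAA tumours and 10.8 ± 3.34 FPKM (SD of 3 libraries) in Akt/Nras tumours, against 1.86 ± 0.696 FPKM (SD of 4 libraries) in normal livers (log2 difference 1.56, SE 0.24, adjusted p = 0.00586 by limma between the tumour groups). H4c9 was also higher with Foxo1AAA (log2 difference 1.27, SE 0.29, adjusted p = 0.0205 by limma). Against normal liver, 10 of the 14 were called higher and 0 lower in Akt/Nras/Foxo1AAA tumours (26.8% and 36.5% of all tested genes). In Akt/Nras tumours 5 were called higher and 1 lower (31.1% and 37.9%), so the count of 5 was near its share. These genes have near-identical copies and most of their mRNA carries no poly(A) tail, so the values are uncertain where the kind of library is not stated, and the part of either in the difference was not tested.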
